A study of Rattus norvegicus with 11 samples.

Results

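Transcript signals of 8 genes of cholesterol synthesis and its feedback control, Mvk, Pmvk, Fdps, Fdft1, Sqle, Cyp51, Insig1 and Insig2, were followed on 11 Affymetrix rat arrays. They were found by platform gene symbol and are covered by 12 of the 15923 probe sets on the array: 3 for Mvk, 2 each for Fdft1 and Cyp51, and 1 for each of the other genes. The 8 are synthesis enzymes and Insig proteins, and none of them takes up cholesterol, so uptake is described below from a separate list. Each array carried RNA of REF52, a line of embryonic rat fibroblasts. The line was cultured with 10% serum, kept for 48 hours at 0.25%, and then infected with an adenovirus carrying E2F1, which drives cell cycle genes, or with a control (CMV) adenovirus. The 6 groups were E2F1 and control virus cells given serum, E2F1 and control virus cells given serum with LY294002, an inhibitor of phosphoinositide 3-kinase, and E2F1 and control virus cells left in deprivation medium. There were 2 arrays per group, and 1 for control virus cells in deprivation. All groups share the deprivation before infection and an adenovirus, and no uninfected cells were analysed here. Whether the arrays within a group stem from separate cultures is not in the labels, so every p-value reflects array-to-array spread alone, which may be technical. E2f1 itself has no probe set with that single symbol and is not analysed here.

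Cholesterol is made from acetyl-CoA through mevalonate. Mvk phosphorylates mevalonate and Pmvk phosphorylates the product of Mvk. Fdps joins the isoprenoid units to farnesyl diphosphate, Fdft1 condenses that to squalene, Sqle oxidises squalene, and Cyp51 removes a methyl group from lanosterol. Insig1 and Insig2 are proteins of the endoplasmic reticulum that, when sterols are plentiful, hold back SCAP and its cargo, the SREBP transcription factors. SREBP released from this hold enters the nucleus and turns on most genes of the pathway together with Insig1, usually beside the factors NF-Y and Sp1, and NF-Y binds the letters CCAAT.

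The sequence just before the start of each gene is shown because these genes share this type of control. RefSeq (assembly GRCr8) gave it for 5 of the 8 genes, and the 250 bases before the start are printed for 4 of them, from 5′ to 3′ on the strand of the gene, with CCAAT or its reverse complement ATTGG in capitals. They lie at chr12:47819504-47819753 (minus strand) for Mvk, chr2:176804817-176805066 (minus strand) for Fdps, chr4:30991443-30991692 (plus strand) for Cyp51 and chr4:8057770-8058019 (minus strand) for Insig1.
Mvk: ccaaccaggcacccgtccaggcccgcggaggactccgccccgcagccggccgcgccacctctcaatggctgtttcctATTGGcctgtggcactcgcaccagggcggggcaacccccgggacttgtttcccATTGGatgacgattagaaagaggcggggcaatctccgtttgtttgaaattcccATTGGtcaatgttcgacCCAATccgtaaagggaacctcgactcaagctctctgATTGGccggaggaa
Fdps: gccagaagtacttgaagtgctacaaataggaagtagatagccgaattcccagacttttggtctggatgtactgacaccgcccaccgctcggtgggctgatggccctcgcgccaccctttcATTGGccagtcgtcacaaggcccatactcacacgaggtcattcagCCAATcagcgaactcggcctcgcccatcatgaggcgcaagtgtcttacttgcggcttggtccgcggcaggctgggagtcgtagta
Cyp51: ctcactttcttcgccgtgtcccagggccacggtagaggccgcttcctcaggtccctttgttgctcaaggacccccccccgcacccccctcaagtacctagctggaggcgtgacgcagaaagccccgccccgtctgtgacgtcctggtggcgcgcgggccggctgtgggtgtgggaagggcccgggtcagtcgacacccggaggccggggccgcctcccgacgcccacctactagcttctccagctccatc
Insig1: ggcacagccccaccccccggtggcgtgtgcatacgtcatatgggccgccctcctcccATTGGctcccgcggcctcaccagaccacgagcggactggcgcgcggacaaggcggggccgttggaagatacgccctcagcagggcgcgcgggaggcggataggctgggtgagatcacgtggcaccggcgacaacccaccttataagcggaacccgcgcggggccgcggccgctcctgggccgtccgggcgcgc
CCAAT was found 5 times before Mvk, 2 times before Fdps, 1 time before Insig1 and 0 times before Cyp51. The fifth window, that of Insig2, held it 1 time. In Mvk the matches began 173, 120, 67, 50 and 14 bases before the start. Both strands were searched, and 34% of 33469 windows of the same length in the same table held CCAAT at least once, 9.42% at least 2 times and 0.179% at least 5 times. The sterol element letters TCACNCCAC were in 0 of the 5 windows and 0.974% of all windows. Of E2F motifs only the letters TTTGGCGC and TTTCGCGC were searched, and either was in 0 of the 5 windows and in 0.636% of all. GGCGGG, searched as well, was found 2 times before Mvk, 1 time before Cyp51 and 1 time before Insig1. It was found 0 times before Fdps and Insig2, and 29.4% of all windows held it at least once. A match is a description of letters and not a site of binding.

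The array table was even in scale, with a median log2(signal + 16) between 7.56 and 7.80. Arrays of a group correlated between 0.959 and 0.984 over all probe sets. Of 10 fibroblast markers, 8 lay above the array median on all 11 arrays, with Thy1 and Pdgfra as the exceptions, and of the markers of hepatocytes, adipocytes, epithelial, endothelial, neural cells and leukocytes 0 did. Epithelial Krt8 (124 to 574, median 335) and neural Syp (184 to 423, median 242) still exceeded it on some arrays. The array medians lay between 172 and 207. The signal at the 3' end minus that at the 5' end of control transcripts, on the log2 scale, was 0.90 on E2F1 array 2 with LY294002 and 0.33 on control virus array 2 with LY294002. It was 0.51 to 0.76 on the deprived arrays and 0.12 to 0.26 on the others, and a fit with this difference as a covariate is given beside the results it moves.

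The 2 control virus arrays with LY294002 did not give the same picture of these genes. On the scale of log2(signal + 16), array 2 lay below array 1 for 12 of 12 probe sets, with a median of -1.96, while the median over all 15866 probe sets tested was -0.07 and the middle 90% ran from -1.10 to 0.77. Insig1 differed by -3.06, Sqle by -2.69 and Fdps by -2.29. In all, 7 of the 12 lay below -1, as did 6.01% of all probe sets. Mvk and Pmvk differed less, by -0.92 and -0.84, and Insig2 by -0.21. In the other pairs the median of array 2 minus array 1 was 0.25 for E2F1 in serum, -0.44 for control virus in serum, -0.04 for E2F1 with LY294002 and 0.08 for E2F1 in deprivation. Control virus array 1 with LY294002 correlated at 0.980 and 0.977 with the control virus serum arrays and at 0.963 with its own partner, as a description over probe sets. Array 2 correlated at 0.958 with each control virus serum array. With the E2F1 arrays with LY294002, array 1 correlated at 0.948 and 0.924 and array 2 at 0.944 and 0.943. Medians and some of the counts that rest on this pair are therefore given below with both arrays and without either.

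**Figure D1:**
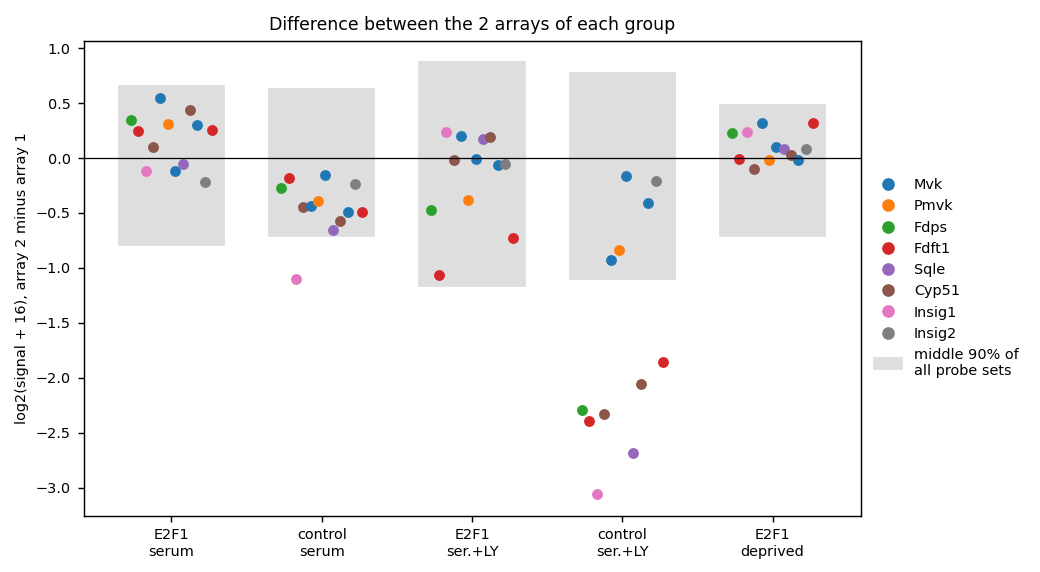
Difference between the 2 arrays of each group for the 12 probe sets, as log2(signal + 16) of array 2 minus array 1, with the middle 90% of all probe sets in grey. Control virus cells with LY294002 stand apart, with Insig1 at -3.06 and 7 of the 12 points under -1, while 11 or more of the 12 points of every other group lie inside the grey band.

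The genes that were lower with E2F1 were the kinases Mvk and Pmvk, and Insig2. Mvk (probe set 1368232_at) had signals of 245 and 365 in E2F1 cells in serum, against 836 and 614 in control virus cells in serum. With LY294002 it had 306 and 355 in E2F1 cells, against 709.7 and 366 in control virus cells, and in deprivation 223 and 282 in E2F1 cells, against 517 on the control virus array. Every E2F1 array was lower than every control virus array, if only just, since the highest E2F1 signal of 365.2 lay beside the lowest control virus signal of 366.2. Averaged over the 3 media, Mvk was 1.92-fold lower with E2F1, a log2 change of -0.94 ± 0.21 (SE, limma adjusted p = 0.0211). The second Mvk probe set, 1387119_at, fell by 0.82 ± 0.14 on the log2 scale (adjusted p = 0.00791), with signals of 122 to 231 on E2F1 arrays and 204 to 461 on control virus arrays. The third, 1375401_at, read between 3.91 and 10.3 on all arrays, under the offset of 16, and carries no usable level.

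Pmvk, the next kinase, had signals of 289.8 and 363 in E2F1 cells in serum, against 671 and 508 in control virus cells in serum. With LY294002 they were 231 and 174 in E2F1 cells, against 533 and 291 in control virus cells. In deprivation they were 268 and 265 in E2F1 cells, against 387 in control virus cells. The E2F1 arrays were below the control virus arrays within each medium, although the groups overlap across media. The averaged log2 change was -0.75 ± 0.19 (adjusted p = 0.031), a 1.68-fold lower level.

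Insig2, the second Insig protein, followed the kinases. Its signals were 169.6 and 144 in E2F1 cells in serum, against 222 and 186 in control virus cells in serum. With LY294002 they were 90.4 and 86.7 in E2F1 cells, against 153 and 131 in control virus cells. In deprivation they were 101 and 108 in E2F1 cells, against 198 in control virus cells. Again E2F1 was lower within each medium without overlap, and the averaged change was -0.59 ± 0.11 on the log2 scale (adjusted p = 0.00957), a 1.51-fold lower level.

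In this average, limma called 4 of the 12 probe sets, from 3 of the 8 genes, lower with E2F1 and 0 higher; over all probe sets tested it called 7.25% lower and 9.23% higher. Of the 12, 11 lay below 0, with a median of -0.58 on the log2 scale, against 55.7% of all probe sets and a median of -0.04. The same 4 probe sets were separate between viruses, with E2F1 lower, within each of the 3 media, as were 8.97% of all probe sets. Over all 6 E2F1 arrays against all 5 control virus arrays, 1 of the 12 did not overlap (Mvk 1368232_at, lower), and 3.59% of all probe sets were lower without overlap. In a bulk culture, less of a transcript in each cell and fewer cells that make it cannot be told apart. The number called dropped to 2 without E2F1 serum array 1, without control virus serum array 1 or without E2F1 deprivation array 1. The calls lost were Mvk 1368232_at and Pmvk, whose adjusted p then lay between 0.0586 and 0.0849, while their log2 changes stayed between -0.89 and -0.69. Pmvk alone lost its call without E2F1 serum array 2 (adjusted p = 0.0505), E2F1 array 2 with LY294002 (adjusted p = 0.0615) or E2F1 deprivation array 2 (adjusted p = 0.0735). The calls of Mvk 1387119_at and Insig2 held in all of these.

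**Figure D2:**
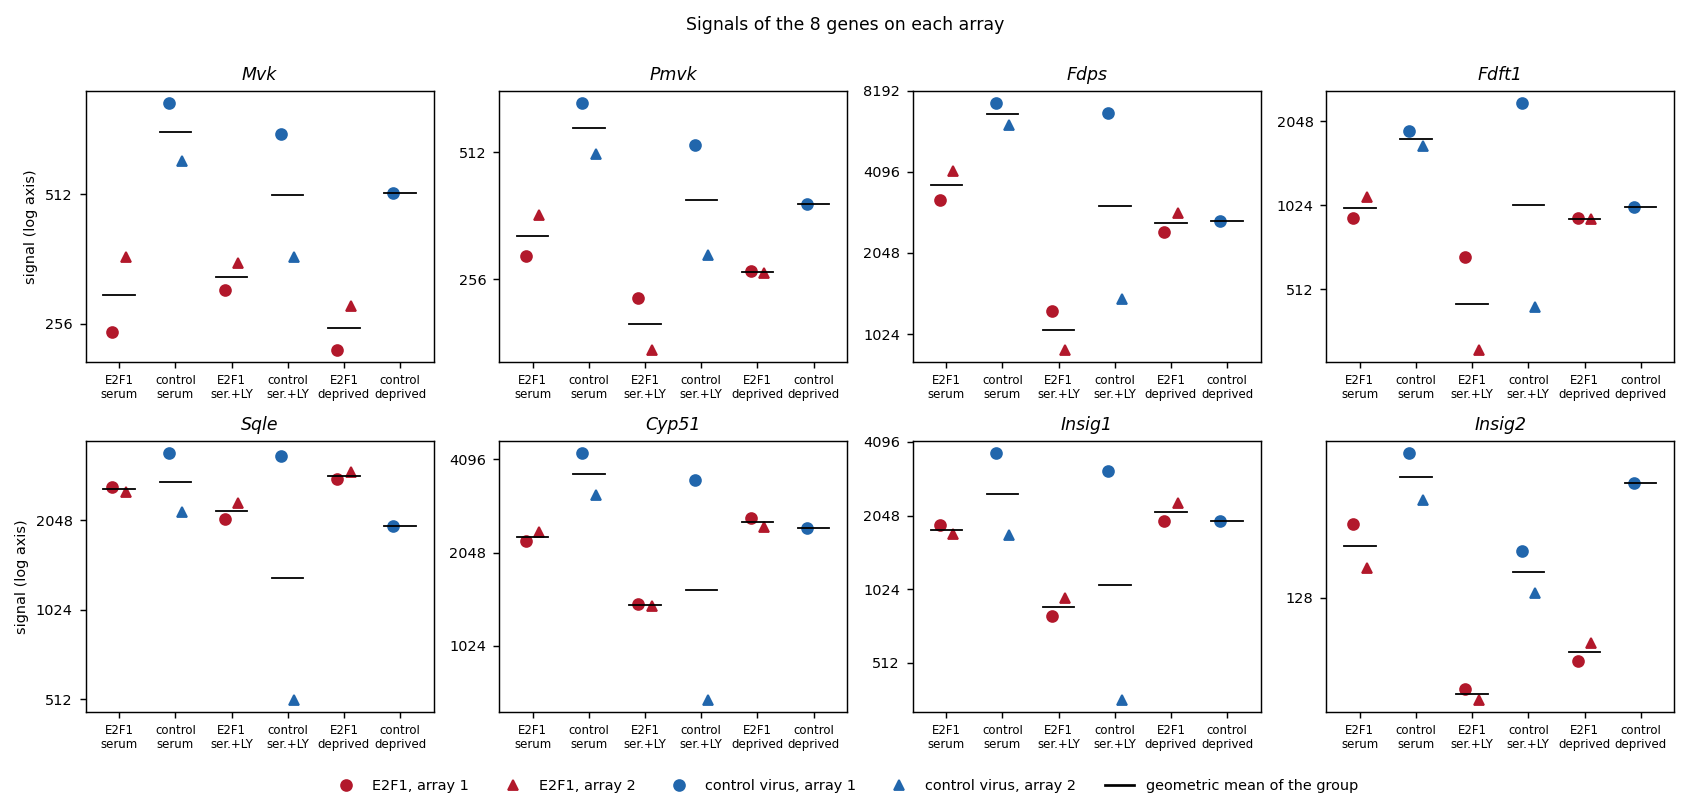
Signals of the 8 genes on every array (log axis), E2F1 in red and control virus in blue, by medium, with circles for array 1, triangles for array 2 and a bar at the geometric mean of each group; ser.+LY is serum with LY294002, and a gene with several probe sets is shown by its brightest. Mvk, Pmvk and Insig2 lie lower with E2F1 in each medium, and for Sqle, Cyp51 and Insig1 the lowest point is control virus array 2 with LY294002.

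The later enzymes Fdps, Fdft1 and Cyp51 were lower with E2F1 in serum by value and did not pass the test. Fdps had signals of 3229.9 and 4115 in E2F1 cells in serum, against 7375 and 6112 in control virus cells in serum. With LY294002 it had 1246 and 895 in E2F1 cells, against 6795 and 1377 in control virus cells. In deprivation it had 2449 and 2874 in E2F1 cells, against 2686 in control virus cells, so that the viruses were separate in serum and with LY294002 and overlapped in deprivation. Its averaged log2 change was -0.81 ± 0.39 (adjusted p = 0.204). Fdps is also the enzyme from which the non-sterol isoprenoids branch.

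Fdft1 (1367839_at), the first enzyme committed to sterols, had signals of 922 and 1094 in E2F1 cells in serum, against 1894 and 1664 in control virus cells in serum. With LY294002 it had 665 and 310.1 in E2F1 cells, against 2383 and 442 in control virus cells. In deprivation it had 921 and 914 in E2F1 cells, against 1006 in control virus cells. The viruses were separate in serum and nearly equal in deprivation, while with LY294002 the low control virus array fell between the E2F1 arrays. The averaged change was -0.70 ± 0.42 (adjusted p = 0.318), and the second probe set, 1389906_at, gave -0.58 ± 0.34 (adjusted p = 0.307).

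Cyp51 (1367979_s_at) had signals of 2226 and 2385 in E2F1 cells in serum, against 4295 and 3151 in control virus cells in serum. With LY294002 it had 1398 and 1379.9 in E2F1 cells, against 3518 and 686 in control virus cells. In deprivation it had 2659 and 2478 in E2F1 cells, against 2464 in control virus cells. Only in serum were E2F1 arrays the lower ones throughout, and the averaged change was -0.26 ± 0.38 (adjusted p = 0.713), with -0.23 ± 0.36 (adjusted p = 0.723) from the second probe set.

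Insig1, the SREBP-driven member of its pair, had signals of 1867 and 1716 in E2F1 cells in serum, against 3688 and 1708 in control virus cells in serum. With LY294002 it had 798 and 941 in E2F1 cells, against 3127 and 361 in control virus cells. In deprivation it had 1953 and 2301 in E2F1 cells, against 1951 in control virus cells. The wide gaps lay between the control virus arrays, and the averaged change was -0.22 ± 0.52 (adjusted p = 0.826).

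Sqle, which oxidises squalene in a rate-limiting step, was the gene with the opposite sign in the average, while in serum it was at -0.08 ± 0.71. It had signals of 2649 and 2557 in E2F1 cells in serum, against 3448 and 2189 in control virus cells in serum. With LY294002 it had 2065 and 2337 in E2F1 cells, against 3368 and 509 in control virus cells. In deprivation it had 2810.3 and 2975 in E2F1 cells, against 1960.3 in control virus cells. Its 6 E2F1 arrays stayed within 2065 to 2975 in all media, and the averaged change was 0.40 ± 0.44 (adjusted p = 0.606).

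The changes of these later enzymes turned on the discordant pair. Without control virus array 1 with LY294002, the averaged E2F1 change was 0.85 ± 0.16 for Sqle, -0.42 ± 0.16 for Fdps, -0.30 ± 0.22 for Fdft1 and 0.13 ± 0.13 for Cyp51. Without array 2 instead, Fdps was at -1.19 ± 0.16, Fdft1 at -1.10 ± 0.22, Cyp51 at -0.65 ± 0.13 and Sqle at -0.04 ± 0.16. The median of the 12 was -0.28 without array 1 and -0.81 without array 2. Mvk, Pmvk and Insig2 were called lower either way, with adjusted p between 0.00896 and 0.0369. Insig1 had 0.29 ± 0.23 without array 1 and -0.73 ± 0.23 without array 2 and passed in neither.

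**Figure D3:**
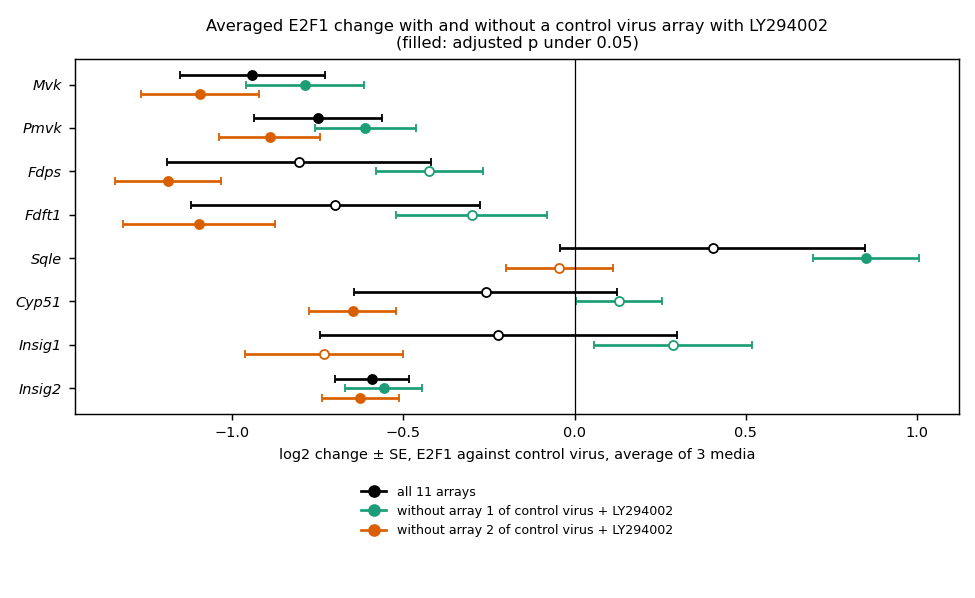
Log2 change with E2F1 against control virus, averaged over the 3 media, for each gene (brightest probe set) with all 11 arrays, without array 1 and without array 2 of the control virus cells with LY294002; bars are standard errors and filled points have an adjusted p under 0.05. Mvk, Pmvk and Insig2 are filled in all 3 settings, Sqle only without array 1, and Fdps, Fdft1 and Cyp51 only without array 2.

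Medium by medium, E2F1 against control virus in serum asks what E2F1 changed in cells given serum alone. By limma 0 of the 12 probe sets passed there, and 0.353% of all did. At an unadjusted p under 0.05 there were 3 of the 12 (both bright Mvk probe sets and Pmvk), against 15.5% of all. The E2F1 arrays were lower without overlap for 9 of the 12 probe sets, against 23.4% of all. The median change was -0.67, with Mvk at -1.22 ± 0.34 (adjusted p = 0.153), Fdps at -0.88 ± 0.62 (adjusted p = 0.544) and Cyp51 at -0.67 ± 0.62. Without control virus serum array 1 the median was -0.42, with 9 of 12 below 0. These standard errors come from a spread shared by all groups, which includes the discordant pair. Without both control virus arrays with LY294002, a setting added after seeing the data, Fdps had the same change with an SE of 0.23 (adjusted p = 0.135) and 0 of the 12 passed.

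With LY294002, E2F1 against control virus again gave 0 of 12 by limma, against 5.41% of all, and 4 of 12 at an unadjusted p under 0.05, against 21.5% of all. The E2F1 arrays were lower without overlap for 5 of the 12, the 4 probe sets of Mvk, Pmvk and Insig2 named above and Fdps, and 23.1% of all probe sets were. Fdps had the largest change in size, -1.52 ± 0.62 (adjusted p = 0.207), and Mvk 1387119_at the smallest adjusted p, 0.0568, at -0.94 ± 0.23. Without array 1, Sqle was at 2.07 ± 0.29 and the median of the 12 was 0.05. Without array 2, Fdps was at -2.67, Fdft1 at -2.35 and Cyp51 at -1.33, and the median was -1.29. With both arrays the median was -0.60, and -0.31 with the 3' to 5' covariate.

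In deprivation the 2 E2F1 arrays were set against the single control virus array, whose spread is taken from the other groups. Again 0 of 12 passed by limma, against 2.87% of all, with 3 of 12 at an unadjusted p under 0.05, against 20.8% of all. The median change was -0.22, against -0.14 over all probe sets. It was -0.52 with the 3' to 5' covariate and -0.15 without E2F1 deprivation array 1. Mvk (-1.0 ± 0.42, adjusted p = 0.223) and Insig2 (-0.83 ± 0.21, adjusted p = 0.0816) were lower, while Fdps (-0.02 ± 0.76), Fdft1 (-0.13 ± 0.83), Cyp51 (0.06 ± 0.75) and Insig1 (0.12 ± 1.02) lay near 0 with wide errors. The E2F1 arrays were lower without overlap for 7 of the 12 and higher for 4, where 52% and 31.8% of all probe sets were.

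The E2F1 change with LY294002 minus that in serum had a median of -0.10 over the 12 and passed for none of them. The median was 0.82 without control virus array 1 with LY294002 and -0.56 without array 2, so its direction turned on that pair. It was 0.31 with the 3' to 5' covariate, and also lay above 0 without control virus serum array 2 (0.13), E2F1 serum array 2 (0.06) or E2F1 array 2 with LY294002 (0.14). The E2F1 change in deprivation minus that in serum had a median of 0.46, with 10 of 12 above 0, against -0.13 over all probe sets, and also passed for none. It was 0.09 without control virus serum array 1 and 0.17 with the 3' to 5' covariate. By limma 0% of all probe sets passed in either of these differences. At an unadjusted p under 0.05 there were 0 of the 12 in each, against 6.29% of all for LY294002 and 9.72% for deprivation. A difference of the E2F1 effect between media was therefore not detectable for these genes with these arrays.

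**Figure D4:**
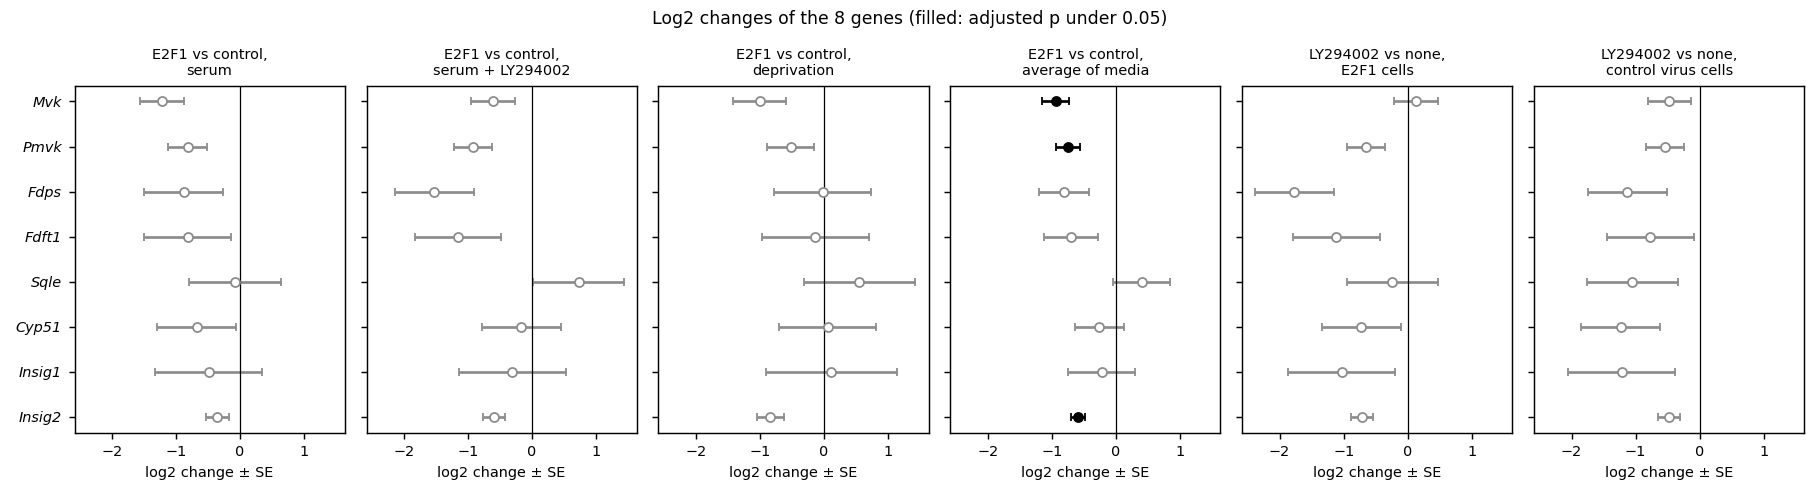
Log2 changes with standard errors of the 8 genes (brightest probe set) in 6 comparisons: E2F1 against control virus in serum, with LY294002, in deprivation and averaged, and LY294002 against none in E2F1 and in control virus cells. Filled points, Mvk, Pmvk and Insig2 in the average, have an adjusted p under 0.05, and Sqle is the one gene above 0 in that average.

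LY294002 in serum was tested within each virus. In E2F1 cells 11 of the 12 probe sets were lower with LY294002 than without it on all arrays, against 24.6% of all probe sets, and the median was -0.69, against -0.05 over all. The 3' to 5' difference was higher on the arrays with LY294002 (0.26 and 0.90) than without it (0.19 and 0.18), and with it as a covariate the median was -0.31, with 11 of 12 below 0. Fdps had 1246 and 895 with LY294002, against 3229.9 and 4115 without, a log2 change of -1.77 ± 0.62 (adjusted p = 0.436). Fdft1 changed by -1.11 ± 0.68, Insig1 by -1.03 ± 0.84, Insig2 by -0.72 ± 0.17 and Cyp51 by -0.72 ± 0.62. Mvk probe set 1368232_at, at 0.13 ± 0.34, was the exception to the lower values. The other bright Mvk probe set, 1387119_at, was lower with LY294002, at -0.39 ± 0.23. By limma 0 of 12 passed, as did 0% of all probe sets, and 2 of 12 had an unadjusted p under 0.05, against 11.1% of all. The change of Fdps was the same, with an SE of 0.23 and an adjusted p of 0.125, in the fit without both control virus arrays with LY294002.

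In control virus cells the mean changes with LY294002 were also below 0 for 12 of 12, with a median of -0.79 against 0.02 over all, but the 2 arrays differed. Insig1 had 3127 and 361 with LY294002, against 3688 and 1708 without, and Fdps had 6795 and 1377 with it, against 7375 and 6112 without. For both genes one array with LY294002 lay near the arrays without it and the other far below them. The arrays did not overlap for 1 of 12 probe sets (Insig2, lower), against 17% of all. By limma 0 of 12 passed and 0% of all, with 1 of 12 at an unadjusted p under 0.05, against 6.62% of all. Without array 1 the median was -1.85, with Cyp51 at -2.40 ± 0.23. Without array 2 the median was 0.0018, with 6 of 12 below 0, so the lower median rested on array 2, although Insig2 was lower on both arrays. With the 3' to 5' covariate the median was -0.53.

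Deprivation against serum addresses the serum response itself. In E2F1 cells the median change was -0.18, against -0.10 over all probe sets, and the arrays were lower without overlap for 6 of 12 and higher for 3, against 37% and 23.1% of all. The sign of that median turned to 0.16 with the 3' to 5' covariate, which was 0.51 to 0.56 on these deprived arrays, and to 0.01 without E2F1 serum array 2, and it was -0.11 without E2F1 deprivation array 1. Mvk 1387119_at was at -0.68 ± 0.23 (adjusted p = 0.183) and Insig2 at -0.52 ± 0.17 (adjusted p = 0.182). In control virus cells, with 1 deprived array, the median was -0.53, against 0.06 over all, and the arrays were lower without overlap for 9 of 12 and higher for 1, against 34.5% and 44.9% of all. That 1 was Mvk 1375401_at (10.3, against 8.28 and 5.77 in serum), which carries no usable level. The 3' to 5' difference was 0.76 on the deprived array and 0.12 to 0.14 on the serum arrays, and with it as a covariate the median was -0.07, with 7 of 12 below 0. Without control virus serum array 1 the median was -0.30, and without array 2 it was -0.80. Fdps had 2686 in deprivation, against 7375 and 6112 in serum, a log2 change of -1.32 ± 0.76, and Mvk 1387119_at was at -0.87 ± 0.28 (adjusted p = 0.242). By limma 0 of 12 passed in either virus, with 0.233% of all probe sets passing in E2F1 cells and 0.24% in control virus cells. An unadjusted p under 0.05 was reached by 2 of 12 in E2F1 cells (19.6% of all) and 1 of 12 in control virus cells (14% of all).

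Among themselves the genes differed in how closely they followed the rest over the 11 arrays. The correlation of a gene's log2 signal with the mean of the other 7, given as a description over arrays that share medium and virus, was 0.938 for Fdps, 0.930 for Fdft1, 0.901 for Cyp51, 0.865 for Pmvk and 0.845 for Insig1. It was lower for Insig2 (0.692), Mvk (0.624) and Sqle (0.539). Over the 9 arrays without the discordant pair it was 0.938 for Fdps, 0.908 for Fdft1, 0.934 for Cyp51, 0.972 for Pmvk, 0.854 for Insig2, 0.810 for Insig1, 0.647 for Mvk and 0.369 for Sqle. Mvk and Sqle were thus the least like the rest in both settings, while Insig2 was not. Over 11 arrays the closest pair was Cyp51 with Insig1 at 0.971 and the least alike was Sqle with Insig2 at 0.115. Over the 9 arrays the closest was Fdps with Fdft1 at 0.958 and the least alike was Mvk with Sqle at 0.036. Insig1 and Insig2 correlated at 0.498 over 11 arrays and 0.695 over 9. Probe sets of the same gene followed each other at 0.983 for Cyp51, 0.967 for Fdft1 and 0.889 for the 2 bright ones of Mvk.

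The 8 other genes most like the mean profile of these genes, out of 5975 ranked by Pearson correlation over the 11 arrays, were Dhcr7 (0.971), Pcyt2 (0.970), Hsd17b7 (0.969), Pdp2 (0.958), Mvd (0.954), Acat2 (0.954), Aacs (0.950) and Lss (0.945). Dhcr7, Hsd17b7, Mvd and Lss are further enzymes of cholesterol synthesis and Acat2 supplies acetoacetyl-CoA. Pcyt2 acts in phosphatidylethanolamine synthesis, Pdp2 is a phosphatase of pyruvate dehydrogenase and Aacs activates acetoacetate. Without the discordant pair their correlations were 0.916 to 0.974. Of the remaining enzymes of the pathway, Idi1 stood at rank 9 and Nsdhl at rank 19, while the sterol reductases Tm7sf2 (rank 1517, 0.383) and Lbr (rank 2636, 0.0753) did not follow the profile.

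**Figure D5:**
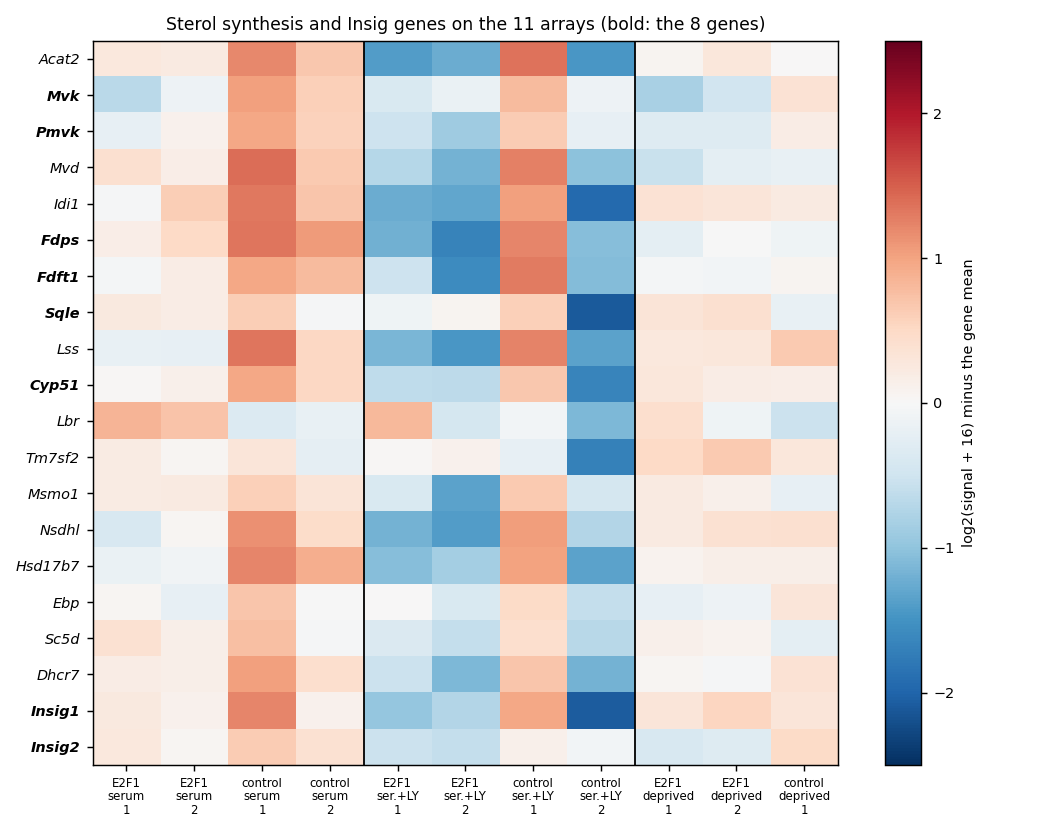
Log2(signal + 16) minus the mean of the gene, for the 8 genes (bold) and 12 other sterol synthesis enzymes, in pathway order with the Insig genes last, on the 11 arrays grouped by medium with E2F1 left of control virus. Control virus serum array 1 and control virus array 1 with LY294002 are red for most rows, control virus array 2 and both E2F1 arrays with LY294002 are blue for most, and Lbr and Tm7sf2 depart from this.

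Of 17 other sterol synthesis enzymes listed, 12 had a probe set with a single symbol. With all arrays, 0 of these 12 passed in the averaged E2F1 comparison. Their median was -0.49 and 10 of 12 lay below 0. Without control virus array 1 with LY294002 the median was -0.14, with 8 of 12 below 0. Without array 2 it was -0.89, with 10 of 12 below 0. The count of 0 passing did not hold in every setting. Some of the 12 passed as lower without array 2, and others as higher without array 1. Each of these fits leaves 1 array in the control virus group with LY294002, so those calls are not counted here. With the 3' to 5' covariate or with a replicate block, Lbr passed as higher. With all arrays the smallest p-values in the average belonged to Lbr and Nsdhl. Lbr, a sterol reductase also of the nuclear envelope, was at 0.84 ± 0.28 (adjusted p = 0.0845). Nsdhl, which acts in the demethylation of sterols, was at -0.84 ± 0.32 (adjusted p = 0.117). With LY294002 against none the 12 had a median of -1.04 in E2F1 cells and -0.93 in control virus cells, 12 of 12 below 0 in each, and 0 passed. In control virus cells the median was -1.82 without array 1 with LY294002 and 0.16, with 3 of 12 below 0, without array 2. In E2F1 cells it was -0.53 with the 3' to 5' covariate. In control virus cells Tm7sf2 (-0.99 ± 0.43, adjusted p = 0.743) and Hsd17b7 (-1.23 ± 0.62, adjusted p = 0.751) had the smallest p-values there. Between the discordant arrays 12 of 12 lay below -1, with a median of -1.82. For deprivation against serum in control virus cells the smallest p-values belonged to Mvd (-1.22 ± 0.78, adjusted p = 0.538) and Msmo1 (-0.68 ± 0.49, adjusted p = 0.595).

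Of 18 genes of SREBP regulation, 15 were measured and in the average 3 passed as higher with E2F1, 1 as lower, with a median of 0.04. Over all probe sets 9.23% passed as higher and 7.25% as lower in this average. Nfya, a subunit of NF-Y, had signals of 578 to 1399 on E2F1 arrays and 297 to 559 on control virus arrays, without overlap, and rose by 1.02 ± 0.15 (adjusted p = 0.00431). Nfyb, another subunit, passed at 0.95 ± 0.20 (adjusted p = 0.0153), with dim and overlapping signals of 53.4 to 109.5 on E2F1 arrays and 5.49 to 77.0 on control virus arrays. The lowest of these, on the single deprived control virus array, lay under the offset of 16, and the change was 1.76 in deprivation and 0.24 in serum, so this value gives no usable size. Erlin1, an endoplasmic reticulum protein that takes part in SREBP control, rose by 0.74 ± 0.11 (adjusted p = 0.00487), and with LY294002 it was at 0.81 (adjusted p = 0.0438), a call lost in every fit that left out 1 array other than the deprived control virus array and in the fit of the compared groups alone. Mbtps1, the site-1 protease that cuts SREBP, fell by 0.50 ± 0.11 (adjusted p = 0.0173), with an adjusted p of 0.0515 to 0.0581 without E2F1 serum array 1, control virus serum array 1 or E2F1 deprivation array 1.

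Of 19 genes of cholesterol uptake and lysosomal release, 12 were measured, with a median of -0.38 for E2F1 in the average. There 1 passed as higher and 3 as lower, against 9.23% and 7.25% of all probe sets. Lrp8, a lipoprotein receptor, had signals of 241 to 850.3 on E2F1 arrays and 84.5 to 236 on control virus arrays and rose by 1.75 ± 0.28 (adjusted p = 0.00561), with 2.66 ± 0.55 in deprivation (adjusted p = 0.0474). Vldlr, a receptor of the same family, had 471 to 1574 on E2F1 arrays and 1968 to 4132 on control virus arrays. Lrp1, a large endocytic receptor, had 821 to 1969.7 on E2F1 arrays and 2021 to 4331 on control virus arrays and fell by 1.25 ± 0.15 (adjusted p = 0.0025). Vldlr and Lrp1 were lower without overlap between viruses, as were 3.59% of all probe sets. Lrp8 lay the other way, also without overlap. Cav1, the coat protein of caveolae, fell by 0.78 ± 0.16 (adjusted p = 0.0153). With LY294002, 3 genes of the list passed as lower, against 1.63% of all probe sets, among them Cav1 (-1.22, adjusted p = 0.0392) and Lrp1 (-1.38, adjusted p = 0.0247). With a replicate block, Lrp1 and Vldlr passed as lower there, against 0.92% of all. The fits of the compared groups alone called neither Cav1 nor Lrp1 with LY294002, nor Lrp8 in deprivation (adjusted p over 0.05). Without either control virus array with LY294002 the adjusted p of Cav1 was 0.0869 or 0.132 and that of Lrp1 0.0569 or 0.0916. Without either deprived E2F1 array the adjusted p of Lrp8 in deprivation was 0.149 or 0.196, and the averaged call of Cav1 had an adjusted p of 0.0506 without E2F1 deprivation array 1.

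Of 14 genes of efflux, esterification and LXR signalling, 12 were measured, with a median of 0.00406 in the average. There 1 passed, as higher, against 9.23% of all probe sets. It was Lcat, which esterifies cholesterol in plasma, higher by 0.78 ± 0.12 (adjusted p = 0.00498). Of 20 genes of the non-sterol isoprenoid branch, 17 were measured, with a median of -0.00274. Of these, 2 passed as higher, against 9.23% of all probe sets. They were Icmt (0.93 ± 0.14, adjusted p = 0.00432), which methylates prenylated proteins, and Rce1 (0.51 ± 0.12, adjusted p = 0.0232), which trims them. The adjusted p of Rce1 lay between 0.0527 and 0.073 without either serum array of either virus or without E2F1 deprivation array 1. Without control virus array 1 with LY294002 the averaged calls were 3 higher and 1 lower of SREBP regulation, 2 and 3 of uptake, 1 and 0 of efflux and 2 and 0 of the isoprenoid branch. Without array 2 they were 3 and 2, 1 and 3, 1 and 0, and 2 and 1 in the same order. No gene of the 5 lists passed with E2F1 in serum alone, or in the comparisons of LY294002 or of deprivation within a virus; the shares of all probe sets passing in those comparisons are given above.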

How the data were processed

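RNA of REF52 cells was labelled with biotin from 6 µg of total RNA per array, per the labels' protocols. The authors deposited 1 linear signal intensity per probe set and array, and MAS5 and RMA are named in the submitters' processing notes without their roles; no version is given. Each array had a mean signal of 500 once the top and bottom 2% were trimmed. Values were taken as log2(signal + 16) with no further scaling, and fold changes are on this scale. The fit was limma 3.58.1 (R 4.3.3, eBayes without trend), with 6 group means over 11 arrays and 5 residual degrees of freedom. The 57 control probe sets were left out, and p-values were adjusted by Benjamini-Hochberg over 15866 probe sets within each of 10 comparisons, two-sided, at a threshold of 0.05; errors of changes are standard errors. The number of arrays limits the precision.

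Genes were named from the platform annotation where a probe set has 1 symbol (12783 of 15866). Genes of the pathway lists were represented by their brightest probe set, and up to 4 called genes per list and direction were named in the averaged comparison; for a list with no call, the 2 of smallest p were named there and within control virus cells. Likeness was ranked over genes above the median signal. The members and lists were chosen with earlier results of these data known. Alternatives were quantile normalization, median centring, offsets of 1 and 64, a filter on the dimmest 30%, robust eBayes with a trend, weighted arrays, a replicate block, fits of the compared groups alone, a covariate for the 3' to 5' difference, and leaving out arrays. The steps were run on simulated data in which 200 probe sets were changed.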

Additional observations from a re-analysis of the deposited data

How the results depend on the processing

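Over all alternatives and members, 0 of the called changes reversed. The averaged E2F1 comparison called 4 of 12 probe sets, also 4 with quantile normalization, median centring, offsets of 1 and 64, without the dimmest 30%, with trend and robust settings, with array weights and with the 3' to 5' covariate, and 8 without both second arrays with LY294002. Leaving out 1 array gave 2 to 8. For E2F1 with LY294002 the count of 0 became 1 with an offset of 64, without the dimmest 30% or with trend and robust settings (Mvk 1387119_at each time), and 0 to 3 leaving out 1 array. For E2F1 in deprivation it became 1 with array weights (Insig2). For LY294002 in control virus cells it was 0 to 1 leaving out 1 array, and 0 to 0 in every other comparison. Fits of the 2 compared groups alone called 0 of 12 for E2F1 in each medium, and 0 genes of the 5 lists with LY294002 or in deprivation. Among all probe sets, calls ran over the alternatives other than leaving out 1 array from 0 to 522 for E2F1 in serum (56 as reported), 0 to 1311 with LY294002 (858), 0 to 1223 in deprivation (456), 2217 to 3194 in the average (2615), 0 to 189 for deprivation in control virus cells (38) and 0 to 1173 in E2F1 cells (37). Leaving out 1 array gave up to 325 for LY294002 in E2F1 cells (0 as reported). The cause was not tested.

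Array numbers recur in the labels. The deviations of same-numbered arrays correlated over 0.1 for 1 of 10 pairs of groups (0.30, the 2 LY294002 groups), so the numbers were not taken as a pairing. With a replicate block the average called 4 of 12, with a median of -0.53, and every other comparison called 0. The block turned the median for E2F1 in deprivation to 0.07 (-0.22 without it) and gave 0.76 for the difference of deprivation from serum (0.46 without it). The average could not be fitted without the deprived control virus array. The single deprived control virus array and 2 arrays in each other group limit every comparison. Signals near the offset of 16 carry no usable change.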

Other observations

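Among the 15866 probe sets ranked by control virus array 2 minus array 1 with LY294002, from the lowest, Insig1 stood at rank 23, Sqle at 40, Fdft1 at 54, Cyp51 at 64 and Fdps at 76, while Pmvk stood at 1368 and Insig2 at 6003. This ranking was made after the values were seen. The genes at its low end, among 6830 probe sets with a single symbol and a mean above the median, were led by genes outside sterol synthesis. Ogn, a matrix proteoglycan, had signals of 17.8 on array 2 and 977 on array 1. Eno3, the muscle enolase, had 31.5 on array 2 and 1330.2 on array 1, and Car3, a carbonic anhydrase, had 248 on array 2 and 6277 on array 1. Scd2, a fatty acid desaturase, had 193 on array 2 and 2070.0 on array 1, and Idi1, the isomerase just before Fdps, had 158 on array 2 and 1348 on array 1.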
